A study of Mus musculus with 23 samples.

Results

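Fibroblast growth factor (FGF) ligands and their receptors were described in cells sorted from the growing end of the mouse lower incisor, to show which side of the sort held the transcripts of the ligands and which those of the receptors. The members are 10 genes named in a list, found in the table of counts by Ensembl identifier with the version dropped: the 7 ligands Fgf1, Fgf2, Fgf3, Fgf7, Fgf9, Fgf10 and Fgf18, and the 3 receptors Fgfr1, Fgfr2 and Fgfr3. All 10 were found among the 54347 genes of the table, and 17190 genes had enough counts to be tested over both batches.

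Tissue was the labial cervical loop, the epithelial fold with its surrounding mesenchyme at the base of the incisor, from mice at postnatal day 2 of the Sox2-GFP line. In that line the endogenous Sox2 promoter drives green fluorescent protein, and every group carried the reporter; strain and sex are not given in the sources used here. Flow sorting on GFP gave a Sox2-positive population, named dental epithelial stem cells in the labels, and a Sox2-negative population that holds the remaining sorted cells of the dissected region. RNA libraries made by Smart-seq2 formed 4 groups. Batch A held 6 Sox2-negative and 6 Sox2-positive libraries, and batch B held 4 Sox2-negative and 7 Sox2-positive libraries. The batches were run on different days with different mice. The labels do not say whether libraries of 1 batch came from separate mice, so n counts libraries, and p-values measure only the spread between these libraries, which may be technical.

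FGF ligands are secreted proteins that bind tyrosine kinase receptors on the cell surface together with heparan sulfate, and the activated receptor signals through adaptor proteins to the MAP kinase cascade. Alternative splicing of Fgfr1, Fgfr2 and Fgfr3 gives an epithelial (IIIb) and a mesenchymal (IIIc) form with different ligand preferences, and counts per gene do not separate them. In the incisor, Fgf3 and Fgf10 are known as mesenchymal signals that act on the cervical loop epithelium, mainly through the IIIb form of Fgfr2. Fgf9 is known as an epithelial signal.

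The sorted populations differed in the cell types their RNA came from. Sox2 itself was found at 2.55 to 12.9 CPM (counts relative to the TMM-scaled total of the library) in the Sox2-positive libraries of batch A and at 13.3 to 20.4 CPM in those of batch B, against at most 0.262 and 1.19 CPM in the Sox2-negative libraries of batches A and B. All 8 epithelial markers were higher and all 8 mesenchymal markers lower in Sox2-positive libraries (edgeR, adjusted p under 0.05). The 8 epithelial markers summed to 4296 to 6465 CPM in Sox2-positive libraries of either batch and to 169 to 481 CPM in Sox2-negative libraries, while the 8 mesenchymal markers summed to 701 to 1922 CPM and 10600 to 13658 CPM. Twist1, a mesenchymal transcription factor, was at 0 in every Sox2-positive library. Endothelial, leukocyte and erythroid markers (5 genes each) were lower in Sox2-positive libraries without exception. The Sox2-negative populations were not the same mixture in both batches: the erythroid sum lay at 982 to 1167 CPM in batch A and at 53603 to 62029 CPM in batch B, and the leukocyte sum 2758 to 3142 CPM and 495 to 559 CPM. All 5 glial and neural crest markers were higher in Sox2-positive cells over both batches, although Ngfr was not called in batch B. In batch A they summed to 982 to 1197 CPM in Sox2-positive and 23 to 64.5 CPM in Sox2-negative libraries. In batch B the sums were 54.4 to 87 and 35.1 to 61.9 CPM, which overlapped. Among them, Sox10 ran from 134 to 229.6 CPM in the Sox2-positive libraries of batch A and from 2.97 to 17 CPM in those of batch B. The 4 muscle markers summed to 20.1 to 47.5 CPM in Sox2-positive libraries of batch B and to at most 14.3 CPM in the other groups. Of these markers, Myod1 averaged 19.7 CPM in batch B Sox2-positive libraries. Myf5 went the other way, at 0 in every Sox2-positive library and at means of 3.31 and 0.306 CPM in Sox2-negative libraries of batches A and B. Markers of ameloblasts, the enamel-forming cells of the dental epithelium, went the other way from the epithelial list: all 4 of the 5 that could be tested were lower in Sox2-positive cells, and the 5 summed to 747 to 939.7 CPM in Sox2-negative and 289 to 349 CPM in Sox2-positive libraries of batch A, and to 593 to 712 and 6.82 to 10.1 CPM in batch B. The part of these mixtures in the results below was not tested. In such sorted bulk samples, fewer cells of a type and less RNA per cell cannot be told apart.

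Of the 7 ligands, Fgf3, Fgf7, Fgf10 and Fgf18 were the ones with almost no counts in Sox2-positive libraries, so the 250 bases before their annotated starts (RefSeq, GRCm38.p6) are shown, 5′ to 3′ on the gene's strand. Windows matched by symbol were used for 8 of the 10 members. None was used for Fgf1 or Fgfr1, which does not show that these genes lack an annotated start. Capitals mark matches on either strand to CANNTG, the E-box bound by basic helix-loop-helix factors such as Twist1, or to GGGCGG, a GC box (CCGCCC on the printed strand). No match overlapped another in these windows. The windows are chr7:144838362-144838611 (plus strand) for Fgf3, chr2:126034408-126034657 (plus strand) for Fgf7, chr13:118714449-118714698 (plus strand) for Fgf10 and chr11:33147401-33147650 (minus strand) for Fgf18.
Fgf3: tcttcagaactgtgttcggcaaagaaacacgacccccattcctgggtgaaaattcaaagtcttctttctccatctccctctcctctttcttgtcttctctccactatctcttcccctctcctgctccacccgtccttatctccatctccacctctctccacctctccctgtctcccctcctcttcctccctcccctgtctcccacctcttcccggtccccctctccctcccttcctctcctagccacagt
Fgf7: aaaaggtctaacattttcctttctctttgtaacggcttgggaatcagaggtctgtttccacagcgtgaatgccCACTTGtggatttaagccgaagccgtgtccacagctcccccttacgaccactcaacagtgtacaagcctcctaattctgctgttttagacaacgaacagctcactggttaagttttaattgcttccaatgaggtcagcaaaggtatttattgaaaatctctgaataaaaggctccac
Fgf10: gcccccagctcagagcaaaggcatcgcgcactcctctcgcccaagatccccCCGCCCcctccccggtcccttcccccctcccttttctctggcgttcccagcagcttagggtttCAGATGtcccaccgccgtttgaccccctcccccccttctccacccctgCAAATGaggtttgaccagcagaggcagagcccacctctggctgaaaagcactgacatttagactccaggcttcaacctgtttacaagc
Fgf18: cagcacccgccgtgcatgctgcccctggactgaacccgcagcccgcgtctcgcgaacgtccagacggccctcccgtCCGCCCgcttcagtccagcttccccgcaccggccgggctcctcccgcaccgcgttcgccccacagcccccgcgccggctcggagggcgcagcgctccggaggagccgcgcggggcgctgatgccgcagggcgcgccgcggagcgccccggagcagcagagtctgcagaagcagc
The Fgf10 window held 2 E-box matches, beginning 136 and 88 bases before the start, and 1 GC box. The Fgf7 window held 1 E-box, the Fgf18 window 1 GC box, and the Fgf3 window neither. Over the 32536 distinct windows of that length in the table, 66.2% held CANNTG and 33% held GGGCGG, so single matches are common, and 12.3% held TATAAA, which none of these windows did. The 4 windows were unlike in base composition: GC content was 43.6% for Fgf7, 55.2% for Fgf3, 61.2% for Fgf10 and 77.2% for Fgf18, against a median of 52.4% over all windows.

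Transcripts of the mesenchymal ligands lay almost wholly on the Sox2-negative side. Fgf10 (chr13:118714699-118792573, GRCm38.p6) was counted in every Sox2-negative library and in 3 of the 13 Sox2-positive libraries, at 1 count each. In batch A its level in Sox2-negative libraries ran from 12 to 70.9 CPM with a median of 22.7, and in Sox2-positive libraries from 0 to 0.179 CPM with a median of 0. In batch B the Sox2-negative values were 83.1, 82.4, 65.4 and 120.1 CPM, and the Sox2-positive ones 0 to 0.168 CPM with a median of 0. The populations did not overlap in either batch. The ratio of summed counts, scaled to library size, was 453 in batch A (95% counting interval 125 to 3746, on 723 against 2 counts). In batch B the ratio was 2980 (534 to 117751, on 2356 against 1 count). Such counting intervals leave out the spread between libraries. Fgf10 was called lower in Sox2-positive cells over both batches (edgeR adjusted p = 1.03e-15) and in each batch alone (3.25e-07 for batch A, 3.99e-12 for batch B).

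Fgf3 (chr7:144838612-144843348) was not counted in any Sox2-positive library. In batch A Sox2-negative libraries it ran from 12.4 to 36.1 CPM with a median of 24.1. The 4 batch B Sox2-negative libraries held 16.6, 28.2, 27.6 and 34.7 CPM. Every Sox2-negative library of both batches therefore lay above every Sox2-positive library. Set against a floor of 3 counts per library, Fgf3 was at least 40.9-fold higher in Sox2-negative cells in batch A and at least 37.2-fold higher in batch B (edgeR adjusted p = 2.78e-06 and 3.9e-07). Fgf4 and Fgf15 lie 18 kb and 53.2 kb from Fgf3 on chromosome 7, and neither followed it: Fgf4 had 1 count in total over the 23 libraries, and Fgf15, with no count in batch A, averaged 0.0891 CPM in Sox2-negative and 0.587 CPM in Sox2-positive libraries of batch B.

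Fgf7 (keratinocyte growth factor, chr2:126034658-126091185) and Fgf18 (chr11:33116970-33147400) were low genes with the same side. Fgf7 was at 0 in all 6 batch A Sox2-positive libraries and in 6 of the 7 of batch B, the other holding 4 counts (0.726 CPM). Batch B Sox2-negative libraries held 1.9, 6.6, 3.42 and 5.78 CPM of Fgf7, a ratio of summed counts of 36.4 (95% counting interval 13.8 to 136) without overlap (edgeR adjusted p = 0.000262). In batch A the Sox2-negative libraries were uneven, from 0 to 35.8 CPM with a median of 1.6, so the populations overlapped at 0. A single library, number 4 with 137 of the group's 176 counts, set the mean of 7.64 CPM. The count filter removed Fgf7 from the batch A fit, and an exact two-sided permutation test of the mean CPM gave p = 0.0152, adjusted to 0.0303 over 2 such tests. Without library 4 the Sox2-negative mean was 2.01 CPM and the unadjusted permutation p 0.0303.
Fgf18 held 2.97, 3.15, 2.28 and 5.95 CPM in the 4 batch B Sox2-negative libraries and 1 count in total over the 7 Sox2-positive libraries, a ratio of 120.2 (21.1 to 4795, edgeR adjusted p = 1.72e-05). Its batch A values ran from 0 to 8.17 CPM (median 3.02) in Sox2-negative and from 0 to 0.637 CPM (median 0.111) in Sox2-positive libraries. The batch A groups overlapped, and the ratio of 13 (6.3 to 31.1) did not pass the exact permutation test (p = 0.0519, adjusted 0.0519). The unadjusted p was 0.0173 without Sox2-negative library 1 and 0.0346 without library 5, the pair with 0 and 1 counts, and 0.0952 to 0.104 without any of the other 4.

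Fgf2 (basic FGF, chr3:37348477-37410106), which is made without a signal peptide, was lower in Sox2-positive cells over both batches (log2 fold change -2.85, SE 0.70, edgeR adjusted p = 0.00111). In batch B the Sox2-negative libraries held 25.7, 22.2, 10.3 and 15.5 CPM, and the Sox2-positive libraries 0 to 1.82 CPM with a median of 0.989. Their means differed 22.5-fold with no overlap (log2 fold change -4.35, SE 0.58, edgeR adjusted p = 1.04e-05). In batch A the groups overlapped: Sox2-negative libraries ran from 1.83 to 23.4 CPM (median 8.14) and Sox2-positive libraries from 0 to 13.7 CPM (median 1.25). That difference did not pass the test (-1.49, SE 0.97, 95% interval -3.39 to 0.41, edgeR adjusted p = 0.231). Library 6 held 86 of the 126 Fgf2 counts of the Sox2-positive group, and without it the difference was -2.61 (edgeR adjusted p = 0.051). The difference between the batches did not pass either (-2.95, SE 1.22, edgeR adjusted p = 0.161), and was -1.78 without that library (edgeR adjusted p = 0.448). Exons of Fgf2 share 640 bases with Nudt6, its antisense neighbour, whose mean was 5.09 to 6.36 CPM in 3 of the groups and 0.263 CPM where Fgf2 was highest, on the Sox2-negative side of batch B. No strand setting is given in the sources used here, so reads from the shared bases cannot be told apart.

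**Figure D1:**
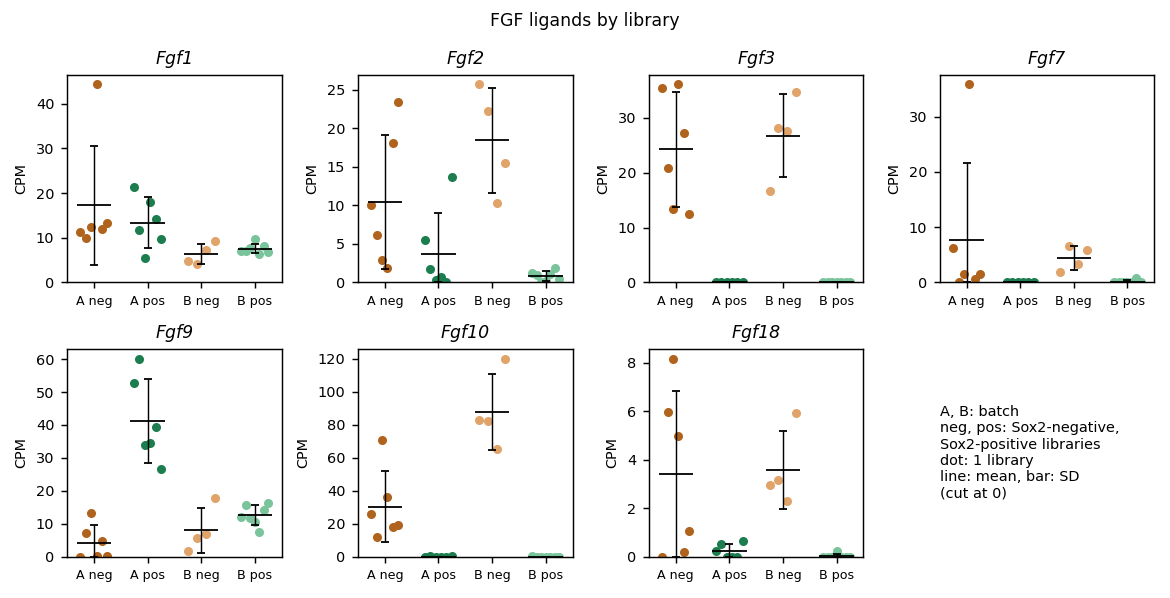
Level of each FGF ligand in CPM (vertical axes, linear) in the 23 libraries by group, with the group mean as a line and the SD as a bar, cut at 0. Fgf3 was at 0 in all 13 Sox2-positive libraries and Fgf10 at no more than 0.179 CPM, while Fgf9 was highest in batch A Sox2-positive libraries at 26.6 to 60.1 CPM.

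Fgf9 (chr14:58070671-58112854) was the member ligand found higher on the Sox2-positive side. In batch A it ran from 26.6 to 60.1 CPM (median 36.9) in Sox2-positive libraries and from 0 to 13.2 CPM (median 2.55) in Sox2-negative libraries. No Sox2-positive library of that batch overlapped a Sox2-negative one, and the means of 41.2 ± 12.7 and 4.3 ± 5.27 CPM (SD, n = 6 each) differed 9.57-fold (log2 fold change 3.26, SE 0.80, edgeR adjusted p = 0.00362). Batch B looked different. Its Sox2-positive libraries held 7.53 to 16.4 CPM (median 12), and the Sox2-negative libraries 1.9, 5.55, 6.85 and 17.8 CPM. The groups overlapped through Sox2-negative library 4, and the difference of 0.72 (SE 0.46, 95% interval -0.19 to 1.63) did not pass the test (edgeR adjusted p = 0.2). Without that library it was 1.48 and passed (edgeR adjusted p = 0.0094), the 1 call among 18 alternative fits. Over both batches Fgf9 rose by 1.97 on the log2 scale (SE 0.57, edgeR adjusted p = 0.00438). The difference in batch B minus that in batch A was -2.59 (SE 0.93) and did not pass in the fit of the 4 groups (edgeR adjusted p = 0.0979). Over 30 alternative fits by edgeR or DESeq2 its adjusted p ran from 0.0215 to 0.303, and 3 called it. These were DESeq2 (-2.58, adjusted p = 0.0499), edgeR without the count filter (-2.58, adjusted p = 0.0231) and edgeR without batch A Sox2-negative library 3 (-3.31, adjusted p = 0.0215).

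Fgf1 (acidic FGF, which can bind every FGF receptor) was present on both sides at similar levels. Batch A Sox2-negative libraries ran from 10.04 to 44.5 CPM (median 12.2) and Sox2-positive libraries from 5.45 to 21.3 CPM (median 13). In batch B the Sox2-negative libraries held 4.87, 4.2, 7.34 and 9.18 CPM, and the Sox2-positive libraries 6.46 to 9.7 CPM (median 7.07). The groups overlapped in each batch. The fit of both batches gave a log2 fold change of -0.09 (95% interval -0.68 to 0.50, edgeR adjusted p = 0.813), an interval that leaves room for a change in either direction.

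Among the receptors, Fgfr1 lay on the Sox2-positive side in both batches. Fgfr1 (chr8:25518759-25575718), a receptor whose IIIc form is typical of mesenchyme, ran from 658 to 857 CPM (median 787) in batch A Sox2-positive libraries and from 322 to 353 CPM (median 333) in Sox2-negative libraries. Batch B Sox2-positive libraries ran from 745 to 1108 CPM (median 877), and the Sox2-negative libraries held 505, 504, 616 and 492 CPM. The populations did not overlap in either batch. Fgfr1 rose 2.28-fold in batch A (log2 fold change 1.20, SE 0.08, edgeR adjusted p = 1.44e-08) and 1.67-fold in batch B (0.81, SE 0.12, edgeR adjusted p = 2.29e-05). The smaller difference in batch B passed the interaction test narrowly (-0.45, SE 0.14, edgeR adjusted p = 0.0426). That call was lost with DESeq2 (-0.41, adjusted p = 0.0553), and in edgeR with RLE scaling (-0.41, adjusted p = 0.0729) and total-count scaling (-0.39, adjusted p = 0.0965). It was also lost in edgeR without the count filter (-0.45, adjusted p = 0.124) and with a mean of at least 10 counts (-0.41, adjusted p = 0.0569). Leaving out batch B numbers 1 and 2 lost it (-0.45, edgeR adjusted p = 0.101), as did 16 of the 23 fits that left out a library. Of 30 alternative fits, 8 called it. Transcripts of Fgfr1 were thus also abundant on the Sox2-negative side, where the levels were lower but far above the floor.

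Fgfr2, whose IIIb form is the main receptor of FGF3, FGF7 and FGF10, did not lie on the Sox2-positive side in either batch. Fgfr2 (chr7:130162451-130266808) ran from 132 to 223 CPM (median 162) in batch A Sox2-negative libraries and from 53.2 to 92.1 CPM (median 63.3) in Sox2-positive libraries, without overlap. It fell by 1.32 on the log2 scale there, a 2.5-fold difference of means (SE 0.18, edgeR adjusted p = 1.86e-05). In batch B the Sox2-negative libraries held 135, 122, 151 and 148 CPM, and the Sox2-positive libraries 104 to 157 CPM (median 112). These groups overlapped, and the difference of -0.12 (SE 0.14, 95% interval -0.39 to 0.14) did not pass the test (edgeR adjusted p = 0.46). The batches differed by test: the interaction was 1.13 (SE 0.23, edgeR adjusted p = 0.00229). On the Sox2-positive side Fgfr2 was 0.84 higher in batch B than in batch A (SE 0.15, edgeR adjusted p = 0.000347), while on the Sox2-negative side the batch difference was -0.29 (edgeR adjusted p = 0.303). Libraries numbered 1 and 2 of batch B stood apart from the higher numbers: Fgfr2 was lower in them in Sox2-negative cells (122 to 135 against 148 to 151 CPM) and mostly higher in Sox2-positive cells (129 to 157 against 104 to 134 CPM). Leaving these 4 libraries out, batch B gave -0.37 (edgeR adjusted p = 0.044) and the interaction 0.91 (edgeR adjusted p = 0.0909). Exons of Fgfr2 share 314 bases with Ctbp2 on the same strand. Ctbp2 averaged 70.3 CPM in Sox2-negative and 88.8 CPM in Sox2-positive libraries of batch A, and 77 and 115 CPM in batch B. How reads from the shared bases were divided between these genes was not tested.

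Fgfr3 (chr5:33721724-33737068), a receptor best known from cartilage, was lower in Sox2-positive cells in both batches. In batch A the Sox2-negative libraries ran from 39 to 93.7 CPM (median 54.1) and the Sox2-positive libraries from 9.14 to 27.5 CPM (median 19), without overlap. In batch B the Sox2-negative libraries held 56.8, 74.3, 123 and 33.8 CPM, and the Sox2-positive libraries 19.8 to 47.7 CPM (median 25.4), with library 6 of that group reaching into the Sox2-negative range. Fgfr3 fell by 1.65 on the log2 scale in batch A (SE 0.31, edgeR adjusted p = 0.000398) and fell by 1.31 in batch B (SE 0.29, edgeR adjusted p = 0.0014). The interaction of 0.28 was not called.

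**Figure D2:**
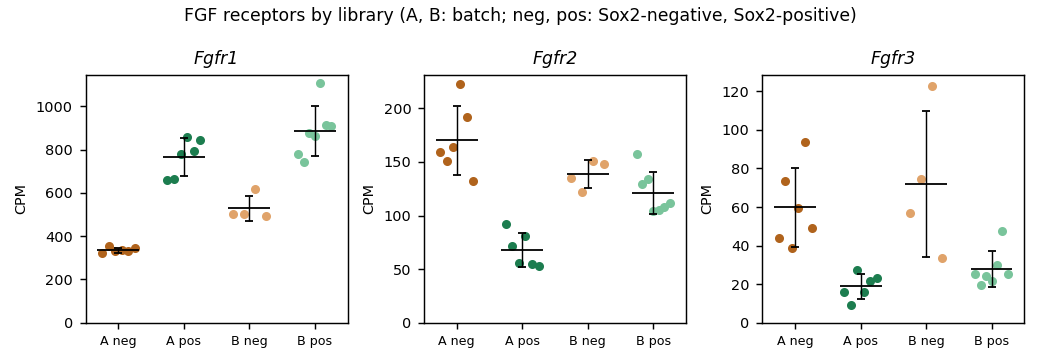
Level of Fgfr1, Fgfr2 and Fgfr3 in CPM (vertical axes from 0) in each library by group, with the group mean as a line and the SD as a bar. Fgfr1 separated the populations in both batches, with Sox2-positive libraries at 658 to 1108 CPM and Sox2-negative libraries at 322 to 616 CPM, whereas Fgfr2 separated them in batch A and overlapped in batch B.

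Counted together over both batches, 2 of the 10 members were higher in Sox2-positive cells (Fgf9 and Fgfr1), 7 were lower and Fgf1 was not called. Of all 17190 genes tested, 24.9% were called higher, 32.5% lower and 57.5% in either direction, so calls as such were common. The median log2 fold change was -2.19 over the members and -0.12 over all genes tested. In batch A, 2 of the 8 members tested were higher and 4 lower, where 19.3% of all genes tested were higher, 24.2% lower and 43.4% called in either direction. In batch B 1 of 10 was higher and 6 were lower, against 27.1%, 27.6% and 54.7%. Library ranges did not overlap in batch A for 2 members higher in Sox2-positive cells (10.9% of all genes tested) and 4 lower (14.3%), and in batch B for 1 higher (16.2%) and 5 lower (20.3%). They were apart in each batch for Fgfr1 (higher, 6.87%) and for Fgf3 and Fgf10 (lower, 10.3%). The interaction was called upward for 1 member, Fgfr2 (2.82% of all genes tested), and downward for 1, Fgfr1 (4.22%), or 7.04% in either direction.

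**Figure D3:**
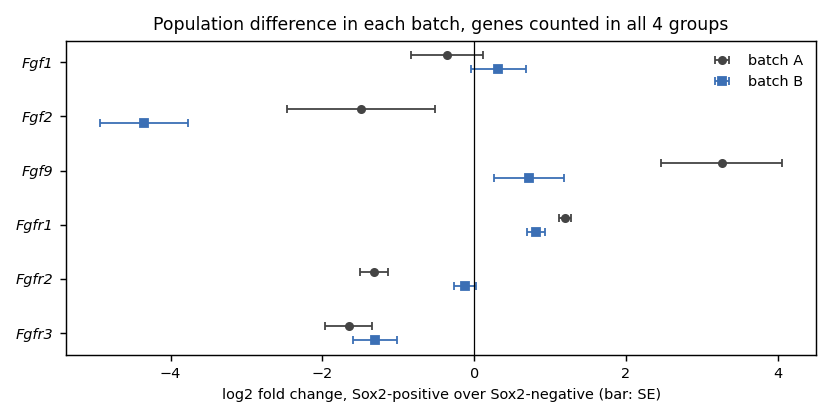
Log2 fold change of Sox2-positive over Sox2-negative cells (horizontal axis) in batch A (circles) and batch B (squares) for the 6 members with at least 10 counts in every group, with the SE from edgeR as bars. Fgf2, Fgf9 and Fgfr2 lie furthest apart between the batches, at -1.49 and -4.35, 3.26 and 0.72, and -1.32 and -0.12.

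Levels of different genes were compared per kilobase of the longest annotated transcript (CPM per kb). How the deposited counts were corrected for length or bias is not given in the sources used here, so these levels and shares are approximate. By group means Fgfr1 and then Fgfr2 stood above every ligand in all 4 groups, although Fgfr2 at 15.4 ± 3.65 and Fgf9 at 11.5 ± 3.52 overlapped within their SD in batch A Sox2-positive libraries. Fgfr3, the lowest of the 3 receptors by mean in each group, stood below Fgf9 there. In batch B Sox2-negative libraries Fgfr3 at 17 ± 8.93 and Fgf10 at 21.3 ± 5.61 overlapped, with Fgfr3 the higher in library 3. In batch A, Fgfr1 averaged 66.7 ± 2.26 CPM per kb (SD over libraries) on the Sox2-negative and 152 ± 17.1 on the Sox2-positive side, and in batch B 105 ± 11.6 and 176 ± 23.2. Fgfr2 averaged 38.4, 15.4, 31.4 and 27.4 CPM per kb in the same order of groups, and Fgfr3 14.1, 4.46, 17 and 6.53. The 3 receptors did not overlap within 1 SD in any group. Shares were taken of the summed level of these 3 receptors. Fgfr1 made up 56.3 ± 4.82% and 68.7 ± 1.85% on the Sox2-negative side of batches A and B. On the Sox2-positive side it made up 88.4 ± 2.26% and 83.6 ± 2.93%.

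Among the 7 member ligands, the leading one differed between the sides. In batch A Sox2-negative libraries Fgf3 led at 10.6 ± 4.53 CPM per kb, followed by Fgf10 at 7.4 ± 5.23, and these overlapped within their SD, as did each further neighbour in the order down to Fgf9 at 1.2 ± 1.47. In batch B Sox2-negative libraries Fgf10 led at 21.3 ± 5.61, then Fgf3 at 11.6 ± 3.25, and Fgf18, Fgf2, Fgf9, Fgf7 and Fgf1 followed at 3.3 down to 1.61 with neighbours overlapping. Among these 7, Fgf9 led on the Sox2-positive side in both batches, at 11.5 ± 3.52 and 3.5 ± 0.859. Fgf1 followed at 3.36 ± 1.43 and 1.91 ± 0.273, outside 1 SD of Fgf9 in each. Fgf21, a ligand outside the 7, stood at 3.64 ± 1.63 and 6.09 ± 2.91 in the same groups. By mean it was above Fgf9 in batch B, where the 2 overlapped within their SD. Fgf9 supplied 73.1 ± 10.4% and 61.7 ± 7.17% of the summed level of the 7 ligands in Sox2-positive libraries of batches A and B. These shares and sums leave out Fgf21 and the other ligands that are not members. By mean, Fgf3 and Fgf10 were the leading shares in Sox2-negative libraries (35.9 ± 14.5% and 23.2 ± 11.4% in batch A, 26.1 ± 5.51% and 47.7 ± 4.94% in batch B). Summed over the 7 ligands, batch A held 19 to 54.1 CPM per kb in Sox2-negative and 10.9 to 21.1 in Sox2-positive libraries, which overlapped. In batch B the sums were 36.7 to 61.8 against 3.9 to 6.57, which did not. The summed receptor level ran from 110.0 to 131 against 150.4 to 192 in batch A, without overlap, and from 139 to 185 against 182 to 251 in batch B, with a slight overlap. Dividing by the union of exons instead kept Fgfr1 at 58.1%, 89.3%, 69.8% and 85% of the receptor level in that same order of groups.

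**Figure D4:**
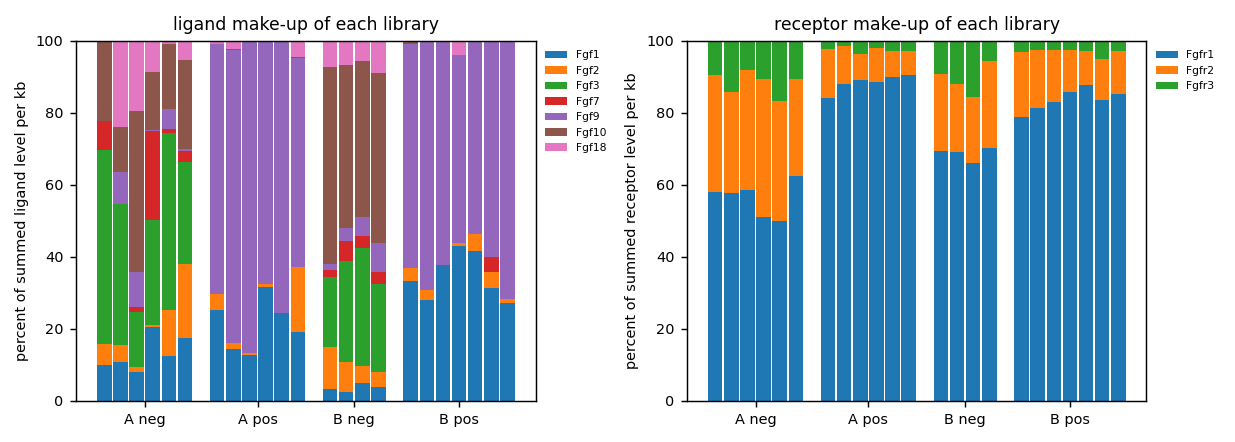
Share of each ligand (left) and each receptor (right) in the summed level per kb, in percent, with 1 bar per library in number order within each group. Fgf9 and Fgf1 fill most of the Sox2-positive ligand bars, and Fgf3 or Fgf10 holds the largest share of each Sox2-negative bar. In batch A Sox2-negative library 2, Fgf18 (23.8%) exceeds Fgf10 (12.6%), and in library 3 Fgf18 (19.6%) exceeds Fgf3 (15.2%). In library 4 of that group, Fgf7 and Fgf1 (24.8% and 20.6%) exceed Fgf10 (16.3%), with Fgf3 at 29%. Fgfr1 fills 84.2 to 90.6% of the batch A Sox2-positive and 49.97 to 62.4% of the batch A Sox2-negative receptor bars.

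Between batches, 3 members differed within Sox2-negative cells and 1 within Sox2-positive cells. Within Sox2-negative cells 2 members were higher in batch B, Fgf10 (log2 1.53, SE 0.40, edgeR adjusted p = 0.012) and Fgfr1 (0.65, SE 0.10, edgeR adjusted p = 7.69e-05), against a background of 5.85%. Fgf1 was lower (-1.43, SE 0.46, edgeR adjusted p = 0.0453), against 5.35% lower and 11.2% in either direction. The Fgf10 call was lost without batch B library 4, its highest at 120.1 CPM (1.35, adjusted p = 0.0605), and without batch B numbers 1 and 2 (1.60, adjusted p = 0.138). Of the 23 fits that left out a library, 13 lost the Fgf1 call, and without batch A library 4, its highest at 44.5 CPM, the value was -0.88 (adjusted p = 0.164). Erythroid and leukocyte marker sums differed between the same groups, as given above, and the endothelial sum was 575 to 828 CPM in batch A and 124 to 209.9 CPM in batch B. Their part in these results was not tested. Within Sox2-positive cells Fgfr2 was the member called (higher in batch B), where 4.85% of all genes tested were called higher, 5.54% lower and 10.4% in either direction. Fgf9 was -1.71 (SE 0.61, edgeR adjusted p = 0.0751), with medians of 36.9 and 12 CPM in batches A and B, whose library ranges did not overlap. It was called by DESeq2 (-1.72, adjusted p = 0.0316), without the count filter (-1.69, adjusted p = 0.0162) and in 4 of the 23 fits that left out a library, each a batch A Sox2-negative one (adjusted p from 0.0365 to 0.0486). Sox10 and the ameloblast marker sum also differed between these Sox2-positive groups, as given above, and their part was not tested.

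Across all 23 libraries, 11088 genes with a mean of at least 10 CPM were ranked by the correlation of their log2 CPM with the ligand and the receptor of highest level per kb. Among the genes most like Fgf10 were Lrrc15 (Pearson r 0.991), Foxd1, Twist1 and Col27a1 (0.985 each). Most like Fgfr1 were Krt5 (0.971), a keratin of basal epithelium, Lrp11 and Ocln (0.96 each), and Dlx2 and Sox9 (0.956 each). Such values describe a pattern that the 4 groups share: the libraries fall into groups by population, and a gene that separates the populations correlates with any other that does.

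The wider pathway, 58 genes in 8 sub-lists, was split between the sides. Of the 46 that could be tested over both batches, 17 were higher in Sox2-positive cells, 12 were lower and 17 were not called, with a median log2 fold change of 0.11 against -0.12 for all genes tested, of which 24.9% were higher and 32.5% lower. In batch A 13 were higher and 8 lower of 40 (all genes tested: 19.3% and 24.2%), and in batch B 16 higher and 14 lower of 44 (27.1% and 27.6%).

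Feedback and response genes, which FGF signalling is known to induce, had 7 of 11 members higher on the Sox2-positive side, 2 lower and 2 not called, with a median of 0.83 (all genes tested: 24.9% higher, 32.5% lower, median -0.12). Etv1, an ETS transcription factor, averaged 209.9 and 155 CPM on the Sox2-positive side of batches A and B and 11.1 and 18.9 CPM on the other (log2 fold change 3.65, SE 0.21, edgeR adjusted p = 6.47e-14). Dusp6, a phosphatase of ERK, averaged 431 and 193 CPM against 81.8 and 54.5 CPM (2.13, SE 0.21, edgeR adjusted p = 1.63e-09). Spred3, an inhibitor of the same cascade, rose by 1.76 (SE 0.51, edgeR adjusted p = 0.00443), from 6.33 and 1.91 CPM to 16.3 and 9.32 CPM, although not in batch A alone (1.37, edgeR adjusted p = 0.175). Against them, the feedback inhibitors Spry4 and Spred2 fell: Spry4 averaged 12.3 and 3.43 CPM in Sox2-positive and 41.4 and 56.1 CPM in Sox2-negative libraries (-2.82, SE 0.33, edgeR adjusted p = 5.28e-08). Spred2 fell by 1.02 (SE 0.20, edgeR adjusted p = 7.15e-05). The interaction was called for 4 of the 11. The difference was larger in batch B than in batch A for Spry4 (interaction -2.33, edgeR adjusted p = 0.00182) and smaller for Etv1 (-1.21, edgeR adjusted p = 0.012). Spred1 was higher in batch B (1.60, edgeR adjusted p = 2.05e-08) and not called in batch A (0.27, edgeR adjusted p = 0.13), with an interaction of 1.27 (edgeR adjusted p = 1.41e-05). Etv4, counted among the 7, averaged 132 CPM in Sox2-positive and 36.7 CPM in Sox2-negative libraries of batch A but 53.7 and 72.1 CPM in batch B, where it was not called (interaction -2.27, edgeR adjusted p = 0.000563).

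Genes of heparan sulfate, the cofactor of ligand binding, went both ways: 7 of 18 were higher, 8 lower and 3 not called, where 57.5% of all genes tested were called, 24.9% higher and 32.5% lower. The largest rises were those of Hs6st1, a 6-O-sulfotransferase (1.82, SE 0.24), Ext2, a chain polymerase subunit (1.12, SE 0.16), and the glypican Gpc4 (0.98, SE 0.16). On the other side Sulf2 and Sulf1, which remove 6-O-sulfate outside the cell, fell by 2.00 (SE 0.30) and fell by 1.74 (SE 0.23), and the syndecan Sdc3 fell by 1.88 (SE 0.18). Adjusted p-values of these 6 genes were at most 9.85e-06 (edgeR), and each was called in each batch with the same sign. Their sizes differed between batches for Sulf2 (interaction -2.54, edgeR adjusted p = 3.74e-06), Sulf1 (1.36, edgeR adjusted p = 0.0184) and Gpc4 (-0.96, edgeR adjusted p = 0.0197).

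Esrp1 and Esrp2, splicing factors known to favour the epithelial IIIb forms of FGF receptors, were both higher in Sox2-positive cells. Esrp1 averaged 73.4 and 108 CPM there and 5.57 and 19.1 CPM in Sox2-negative cells of batches A and B (3.10, SE 0.37, edgeR adjusted p = 6.05e-08). Esrp2 averaged 27.9 and 31.3 CPM against 1.11 and 2.33 CPM (4.14, SE 0.56, edgeR adjusted p = 4.95e-07). The splice forms themselves were not measured here.

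Few genes of the remaining sub-lists were called, where 57.5% of all genes tested over both batches were (24.9% higher, 32.5% lower). In batch B alone 27.1% of all genes tested were higher and 27.6% lower. Among 11 other ligands 4 could be tested and Fgf21, an endocrine FGF, was higher (3.09, SE 0.93, edgeR adjusted p = 0.00594), at 3.46 and 5.79 CPM in Sox2-positive and 0.994 and 0.116 CPM in Sox2-negative libraries of batches A and B. Of 6 adaptors, Ptpn11, the phosphatase SHP2, was lower (-0.93, SE 0.17, edgeR adjusted p = 5.98e-05) and 5 were not called, and in batch A alone Ptpn11 did not pass (-0.61, edgeR adjusted p = 0.0792). In batch B alone the adaptors Grb2 and Gab1 were lower as well (-0.50 and -0.73, edgeR adjusted p = 0.00694 and 0.00486). Of 4 intracellular FGF homologous factors 3 were tested, and Fgf13 was lower (-1.44, SE 0.59, edgeR adjusted p = 0.0389). Its batches disagreed: the means were 14 CPM in Sox2-positive and 10.1 CPM in Sox2-negative libraries of batch A, and 0.845 and 11.1 CPM in batch B (interaction -4.07, edgeR adjusted p = 0.000919). Fgfrl1, a receptor-like protein without the kinase, was the testable gene of the 4 other receptors and co-receptors and was not called over both batches (0.55, edgeR adjusted p = 0.0594), though it was higher in batch B alone (0.77, edgeR adjusted p = 0.00146). Neither of the 2 FGF-binding proteins was called, 1 of them being testable.

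**Figure D5:**
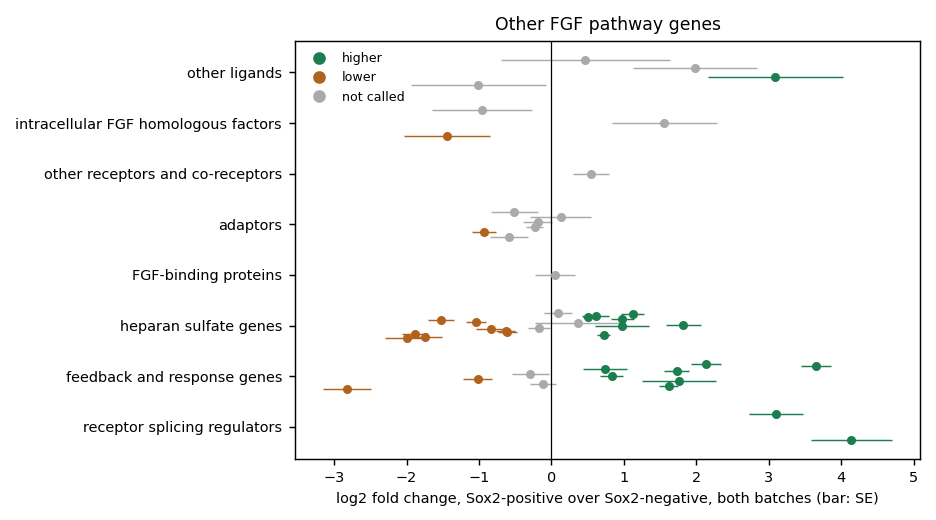
Log2 fold change of Sox2-positive over Sox2-negative cells over both batches (horizontal axis, SE from edgeR as bars) for the 46 testable genes of the FGF pathway lists, 1 row of points per sub-list, coloured by call. Esrp2, Etv1 and Esrp1 lie furthest to the right at 4.14, 3.65 and 3.10, and Spry4 furthest to the left at -2.82.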

How the data were processed

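RNA was measured in 23 libraries, 1 column each, grouped by the labels. The authors deposited estimated counts per gene (expected counts, not scaled to depth), per the labels' Smart-seq2 protocol. The submitters' processing notes name FastQC, Trimmomatic, Salmon and mm10, without versions or roles; the annotation is not given in the sources used here. Only 0.000436% of the nonzero deposited counts lay within 1e-06 of a whole number, so they were rounded before testing. Totals ran from 2305778 to 9541443 per library (median 4831091), and a floor of 3 counts, covering counting error only, was 0.357 to 1.3 CPM. Symbols came from GENCODE M21 (GRCm38) for 54094 identifiers (99.5%), as did transcript lengths. No 2 libraries of a group were close enough to be copies of a single library (smallest ratio of chi-square to its degrees of freedom 5.19), which says nothing of whether they share mice.

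Tests used edgeR 4.0.16 (R 4.3.3): TMM scaling, filterByExpr with a minimum count of 10, the quasi-likelihood F test with batch as covariate, each batch alone, and 4 group means for the interaction (batch B minus batch A) and the batch differences. P-values were two-sided with Benjamini-Hochberg adjustment over all genes tested, and a gene was called under 0.05. The SE is the absolute log2 fold change over the root of F. Scripts were tested on simulated data. Members filtered out of a batch had an exact permutation test (Python 3.11.15, scipy 1.17.1). Counting intervals are 95% exact binomial (Clopper-Pearson) intervals on counts summed over the libraries of a group, without the spread between libraries. All members were named. Of each pathway sub-list, up to 3 called genes with the largest changes in each direction were named. Fgf4, Fgf15, Fgfrl1 and Nudt6 were named besides, with Spred1, Etv4, Grb2, Gab1 and Ctbp2 after their values were seen. Correlations used log2 CPM with a prior count of 2. Alternatives were DESeq2 1.42.0, RLE and total-count scaling, other filters, the replicate block, batch B without numbers 1 and 2, and leaving out each library. Some genes that these rules select are not reported here. Members and lists were chosen with earlier results of these data known.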

Additional observations from a re-analysis of the deposited data

Results flagged for a closer look

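In 7 of 40 combinations of a member and a group (groups of 4 to 7 libraries), 1 library stood apart from the rest by Dixon's criterion. Chance alone meets it in about 1 of 20 groups of normally distributed values. That rate need not hold for skewed values and does not hold for groups of mostly zeros. Library 4 of batch A Sox2-negative was far above its group for 2 ligands, at 44.5 CPM of Fgf1 (the next library had 13.2) and at 35.8 CPM of Fgf7 (the next had 6.2). In batch B Sox2-positive libraries the values apart were single nonzero libraries among zeros, which meet the criterion by construction: Fgf7 at 0.726 CPM in library 6 (4 counts), Fgf10 at 0.168 CPM in library 1 (1 count) and Fgf18 at 0.242 CPM in library 4 (1 count). Among the receptors, Fgfr1 reached 616 CPM in batch B Sox2-negative library 3, where the next library had 505, and Fgfr3 reached 47.7 CPM in batch B Sox2-positive library 6, where the next had 29.8. The population difference itself differed between batches by test for Fgfr1 (interaction -0.45 on the log2 scale) and for Fgfr2 (1.13).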

How the results depend on the processing

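No member changed sign under any alternative among the differences called. For Sox2-positive against Sox2-negative cells, counts of members called differed where a filter let in or removed a low ligand: a mean of at least 10 counts gave 6 lower over both batches, 5 in batch A and 5 in batch B, and no filter 6 in batch A. Of all genes tested, 4935 of 15350, 3719 of 15199 and 4420 of 15335 were then lower, and 4221 of 33644 in batch A without the filter. Without batch B numbers 1 and 2, batch B gave 7 lower (all genes tested: 3435 of 16264). In batch B leaving out a library gave 1 to 2 members higher. Leaving out a library gave 1 to 2 higher and 0 to 1 lower within Sox2-negative cells. It gave 0 to 1 lower within Sox2-positive cells and 0 to 1 lower for the interaction. Shares of all genes called in these leave-out fits are not given here, so the member counts cannot be set against them. For the interaction, 0 members were lower with RLE scaling, total-count scaling or a mean of at least 10 counts, against 1 (all genes tested: 662, 643 and 667 lower, against 726). Without batch B numbers 1 and 2, it gave 0 higher and 0 lower, and within Sox2-negative cells 1 higher and 0 lower. Of all 18629 genes then tested, 159 were higher and 322 lower for the interaction, and 405 and 349 within Sox2-negative cells. Within Sox2-negative cells no filter beyond 1 count gave 0 lower (all genes tested: 855 of 37531). Within Sox2-positive cells 1 member, Fgf9, was lower with DESeq2 or without the filter, against 0 (all genes tested: 1171 of 17190 and 905 of 37531 lower, against 952 of 17190). The causes were not tested. No pairing by replicate number was seen: deviations of same-numbered libraries correlated at -0.0248 to 0.062, and none of 10 matched its own number best. As these compare different cell populations, they cannot show whether same-numbered libraries share mice. The replicate block changed no count of members called, but lowered the genes called for the interaction from 1210 to 557; it could not be fitted for the differences between batches. Leaving out batch B numbers 1 and 2 gave 481 for the interaction. Total-count scaling moved the median of all genes by 0.12 over both batches (from -0.12 to 0.00) and the split of calls from 4288 higher and 5591 lower to 4966 and 5051. Depth limits the ligands at a few counts.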
